A study of Homo sapiens with 6 samples.

Results

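Glycolysis turns glucose into pyruvate in the cytosol, and most of its steps can be carried out by any of several isoenzymes encoded by separate genes. Glucose enters through transporters of the SLC2A (GLUT) family, hexokinases trap it, phosphofructokinase 1 commits it to breakdown under the control of fructose 2,6-bisphosphate, and lactate dehydrogenase and the SLC16A carriers turn pyruvate into lactate and export it. Pyruvate dehydrogenase kinases inactivate the mitochondrial complex that oxidizes pyruvate. Hepatic stellate cells raise glycolysis when they become myofibroblasts, and several of these genes are textbook targets of hypoxia-inducible factor.

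The genes described here are 35 glycolysis enzymes, pyruvate dehydrogenase kinases and glucose and lactate transporters, chosen by symbol out of the 60748 genes in the deposited table. All 35 were found. Their transcripts were sequenced in lentivirus-infected LX-2 cells, an immortal line of human hepatic stellate cells. The LX-2Vector group (n = 3) carried the empty GV367 vector, and the LX-2FAP group (n = 3) stably overexpressed from it fibroblast activation protein α (FAPα), a cell-surface serine protease. GV367 places the insert behind a ubiquitin promoter and also encodes EGFP and puromycin resistance, so both groups share these. The study's methods speak of stable cell clones selected with puromycin. Cells of both groups were kept in DMEM with serum and cultured for 24 h. How many clones made up each line, and whether libraries of a group came from separate cultures, is not given in the sources used here. The p-values below therefore measure the spread between these libraries, which may be technical.

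Total counts ran from 17355700 to 26352060 per library, and the 35 genes took 1.197% to 1.37% of them. FAP, the overexpressed gene, had 42 to 55 counts in LX-2Vector and 14805 to 15160 in LX-2FAP, a log2 fold change of 8.33 (edgeR quasi-likelihood adjusted p = 4.47e-16). In normalized counts (CPM, scaled to library size), FAP stood at 620, 843 and 707 in LX-2FAP replicates 1 to 3. It was thus lowest in replicate 1 and highest in replicate 2. On the first principal component (36.2% of the variance) LX-2Vector lay between -20.7 and -11.6, while LX-2FAP replicates 1, 2 and 3 lay at 1.91, 25.4 and 17.01, so that replicate 1 was nearest to the controls. Of 10 stellate and mesenchymal markers, all were tested, and COL1A1 (log2 fold change -0.40), COL3A1 (-0.69) and PDGFRB (-0.38) were called lower and VIM (0.13) higher in LX-2FAP. Of the markers of other cells, 1 of 8 hepatocyte, 5 of 8 endothelial, 4 of 8 macrophage and leukocyte and 2 of 8 epithelial genes had enough counts to test. No library held more than 19.3 CPM of any of these lists in sum, and TTR and CLEC4G were at 0 in every library. The endothelial list summed to 11.8 to 13.4 CPM in LX-2Vector and 8.62 to 11.5 CPM in LX-2FAP, with VWF called lower (-1.06), and the hepatocyte list to 13.2 to 15.1 and 10.6 to 11.9 CPM. The part of these shifts in the values below was not tested.

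The main comparison asked which of these genes differed between LX-2FAP and LX-2Vector. Genes of glucose uptake, of both phosphofructokinase activities, of the lower pathway and of lactate production and export were lower in LX-2FAP by 15.4% to 43.1%. They were SLC2A1, PFKL, PFKFB3, PFKFB4, ALDOC, PGK1, ENO2, LDHA, PDK1 and SLC16A3. Only LDHB among the 35 was called higher, by 34.8%. Of the most abundant enzymes, GAPDH, ENO1, PKM and PGAM1 did not pass the test, nor did either main hexokinase. In bulk RNA of this kind, fewer cells expressing a gene and less of its RNA per cell cannot be told apart.

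Counts were compared by edgeR's quasi-likelihood test over all genes with enough counts, and a gene was called at a Benjamini-Hochberg adjusted p under 0.05 over 18275 genes. Of the 35 genes 34 were tested, since PGAM2, the muscle phosphoglycerate mutase, had no count in any library. A count of 0 allows up to 3 counts, or 0.114 to 0.173 CPM, counting error only, and every exon base of PGAM2 also lies under DBNL on the other strand. Of the 34, 10 were called lower, where 2.73% of all tested genes were, and 1 was called higher, where 2.57% were. In either direction 11 of the 34 were called against 5.29% of all tested genes. Of the 22 genes with a mean of at least 1000 counts, 9 were called lower, against 3.28% of all tested genes at that level. The remaining 23 were not called, and 19 of them had a negative and 4 a positive log2 fold change. In all, 29 of 34 had a negative log2 fold change (85.3%, against 53.0% of all tested genes), with a median of -0.14 against -0.01 over all tested genes. With a trend on GC content removed from each library, the genes with a negative value were 22 of 34 and the median was -0.07 against 0.03.

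Normalized values of both groups did not overlap for 17 of the 34 genes, 16 lower and 1 higher in LX-2FAP, where 13.4% and 13% of all tested genes did so. LDHA was the called gene whose groups overlapped. At the cutoff the study used for its heatmap (over 1.2-fold, P under 0.05) 8 genes were lower (6.44% of all tested genes) and 1 higher (1.45%) when the P is taken as unadjusted. SLC2A4 passed that cutoff and was not called, and PFKFB3, PGK1 and LDHA were called and did not pass it.

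These calls depended on single libraries. With LX-2Vector replicate 1, 2 or 3 left out, 6, 9 and 4 of the 34 genes were called, beside 2.09%, 3.54% and 2.12% of all tested genes. With LX-2FAP replicate 1, 2 or 3 left out, 14, 2 and 0 were called by edgeR, beside 10.4%, 0.687% and 0.138% of all tested genes, so calls moved across the whole table. In the last of these fits 14 genes had an unadjusted p under 0.05, of which 13 were lower, beside 14.2% of all tested genes, and PFKL was at -0.36 and ALDOC at -0.72. The DESeq2 Wald test did not call ALDOC (-0.82, adjusted p = 0.0605), ENO2 (-0.48, adjusted p = 0.0578), PFKFB4 (-0.49, adjusted p = 0.115), PDK1 (-0.40, adjusted p = 0.135) or LDHA (-0.25, adjusted p = 0.176), at log2 fold changes close to those of edgeR. Limma-trend on log2 FPKM called 0 at either pseudocount, and 17 had an unadjusted p under 0.05, beside 19.9% of all tested genes at the pseudocount of 0.1. The sign of the log2 fold change of each of the 11 called genes was the same under all 15 alternatives. PFKL and ALDOC were called in 5 of the 6 fits that left out a library, and ENO2 in 4.

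**Figure D1:**
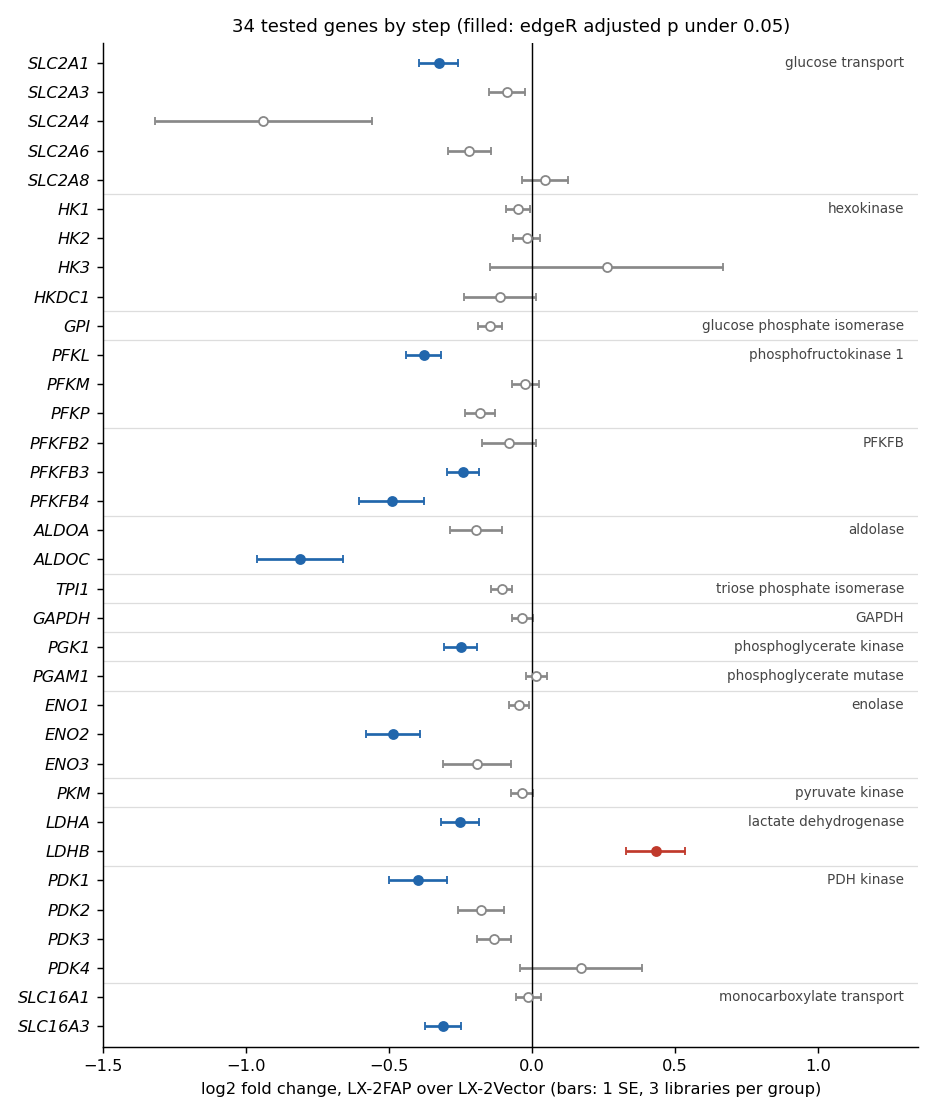
Log2 fold change (LX-2FAP over LX-2Vector, x axis) of the 34 tested genes, grouped by step of the pathway, with 1 SE from the edgeR fit as bars. Filled points are the 11 genes called, 10 to the left of 0 and LDHB to the right, and the wide bars of SLC2A4 and HK3 belong to genes with 18 counts or fewer in each library.

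Windows of sequence before the start sites are shown for some of the called-lower enzymes and for ENO1. The called-lower genes share a direction because they were picked by it. Hypoxia-inducible factor is known to bind a core written ACGTG or GCGTG, so both were searched on both strands (CACGT and CACGC on the other strand) in the 250 bases before each RefSeq start site (GRCh38.p14). A palindrome CACGTG holds ACGTG on both strands and counts as 2 matches. The table of windows held 31 of the 35 genes, in 60 windows, and SLC2A3, SLC2A4, PFKFB2 and SLC16A1 were not matched. The windows printed are those of ALDOC, PFKFB4, ENO2 and ENO1, each of which has a single window. ALDOC, PFKFB4 and ENO2 have the most negative log2 fold changes among the called genes with a single window. ENO1, the enolase that was not called, was picked after the values were seen. In GENCODE 29 each of these genes begins upstream of the start site used, so a single window does not mean a single start site. Capitals mark the searched letters, and each window runs 5′ to 3′ on the strand of its gene.
ALDOC, chr17:28576896-28577145, minus strand: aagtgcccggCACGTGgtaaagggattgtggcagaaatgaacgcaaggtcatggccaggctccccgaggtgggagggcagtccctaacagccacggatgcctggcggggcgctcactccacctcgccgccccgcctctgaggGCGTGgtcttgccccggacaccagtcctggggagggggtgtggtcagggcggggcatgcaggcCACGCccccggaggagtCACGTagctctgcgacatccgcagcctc
PFKFB4, chr3:48556804-48557053, minus strand: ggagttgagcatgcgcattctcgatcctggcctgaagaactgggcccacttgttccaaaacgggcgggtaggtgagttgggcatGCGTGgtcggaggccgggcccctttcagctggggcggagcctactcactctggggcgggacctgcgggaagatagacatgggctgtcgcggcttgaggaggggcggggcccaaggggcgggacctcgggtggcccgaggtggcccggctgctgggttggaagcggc
ENO2, chr12:6914330-6914579, plus strand: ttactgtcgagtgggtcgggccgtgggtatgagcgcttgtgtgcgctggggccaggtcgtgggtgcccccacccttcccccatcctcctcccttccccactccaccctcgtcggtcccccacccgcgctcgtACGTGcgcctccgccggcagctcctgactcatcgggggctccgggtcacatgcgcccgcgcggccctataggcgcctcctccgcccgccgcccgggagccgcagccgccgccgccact
ENO1, chr1:8878687-8878936, minus strand: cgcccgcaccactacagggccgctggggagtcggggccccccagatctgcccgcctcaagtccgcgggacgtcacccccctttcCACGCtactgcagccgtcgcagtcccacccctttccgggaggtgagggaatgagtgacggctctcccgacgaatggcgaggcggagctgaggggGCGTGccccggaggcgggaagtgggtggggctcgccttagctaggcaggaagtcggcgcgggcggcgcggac

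The ALDOC window held ACGTG 3 times and GCGTG 2 times, the most letters of these 4 windows, and the ENO2 window ACGTG once. PFKFB4 held GCGTG once and ENO1 GCGTG 2 times. Of the 6 called-lower genes with a single window (ALDOC, ENO2, PFKFB4, PFKL, PGK1 and SLC2A1), 5 held either core, and the SLC2A1 window held none. Of all 22114 genes with a single window 42.2% held either core. Of all 35116 RefSeq windows, 18.5% held ACGTG, 32.2% held GCGTG and 43.2% held either. Of the 17 windows of called-lower genes 13 held either core (76.5%), and of the 43 windows of the other genes 18 did (41.9%), where HK1 and PFKM have 7 windows each. By gene, 9 of 10 called-lower genes and 14 of 21 others (66.7%) held either core in some window, against 47.4% of all 27305 genes in the table. Genes with more windows have more places for a match, and these sets differed in windows per gene. The shares over all windows and all genes also include genes that were not tested here. No share was counted among the tested genes or among all genes called lower, so these numbers cannot show an enrichment. A match describes letters in these windows and is neither a bound site nor a cause.

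Levels are compared between genes only per length, as FPKM, a depth- and length-normalized value. GAPDH, which makes the first NADH of the pathway, had the highest level at 1388 ± 46.2 FPKM in LX-2Vector and 1328 ± 31.8 FPKM in LX-2FAP (SD, n = 3 each here and below). ENO1, TPI1 and PKM followed at 395 ± 12.1, 396 ± 8.98 and 266 ± 12.4 FPKM in LX-2Vector. These 4 genes held 73.8% to 77.7% of the summed FPKM of the 35 genes in each library. The levels of ALDOA and LDHB in that sum are uncertain, as given below. ENO1 and TPI1 overlapped in LX-2Vector, so these neighbours had no order there. In LX-2FAP ENO1 was at 375 ± 9.14, TPI1 at 361 ± 9.08 and PKM at 254 ± 3.46 FPKM. The gene length behind the deposited FPKM was 2.73 times the GENCODE 29 exon length for PDK3, 1.6 times for PFKP and 1.4 times for SLC2A1, and 0.804 to 1.19 times for the other 31 genes with a count, so levels and shares of these 3 genes against others depend on the annotation. Comparisons between groups do not. LDHA (171 ± 12.7), PGK1 (156 ± 13.3) and PGAM1 (124 ± 1.54) came next in LX-2Vector, and LDHA and PGK1 overlapped there. Below HK1 (63.5 ± 2.25) and ENO2 (55.6 ± 6.45), the other genes with a count had 28.2 FPKM or less in LX-2Vector. The 10 called-lower genes together held 442 to 512 FPKM in the LX-2Vector libraries and 331 to 416 FPKM in the LX-2FAP libraries.

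**Figure D2:**
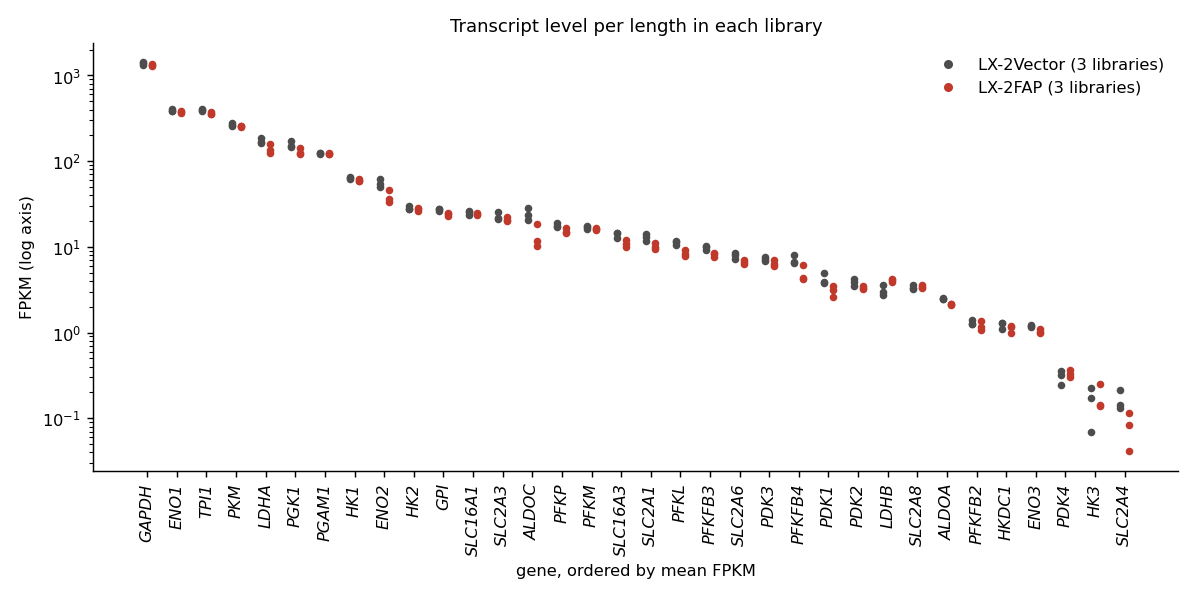
FPKM (log axis) of the 34 genes with a count in each of the 3 LX-2Vector (grey) and 3 LX-2FAP (red) libraries, ordered by mean FPKM. GAPDH stands highest, and HK3, SLC2A4 and PDK4 lie below 1 FPKM in every library.

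SLC2A1 (GLUT1, ENSG00000117394, GRCh38 chromosome 1, 42925375 to 42959176) is the basal glucose transporter of many cells. It stood at 87.0, 77.0 and 93.2 CPM in LX-2Vector replicates 1 to 3 and at 75.01, 63.3 and 66.6 CPM in LX-2FAP replicates 1 to 3. All LX-2FAP libraries lay below all LX-2Vector libraries, though LX-2FAP replicate 1 came close to LX-2Vector replicate 2. The log2 fold change of SLC2A1 was -0.33 (SE 0.07, edgeR adjusted p = 0.0170). SLC2A3 (GLUT3), a transporter of high affinity for glucose and the more abundant per length (22.9 ± 2.39 FPKM in LX-2Vector, against 13.1 ± 1.23 for SLC2A1), gave -0.09 (SE 0.06, edgeR adjusted p = 0.433), and its groups overlapped.

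The other 3 glucose transporters were not called. SLC2A6 gave -0.22 on the log2 scale (SE 0.07, edgeR adjusted p = 0.0933) with no overlap of the groups, and -0.05 with the GC trend removed. SLC2A8 gave 0.05 (SE 0.08). SLC2A4 (GLUT4), the insulin-responsive transporter of muscle and fat, had 14, 10 and 18 counts in LX-2Vector and 11, 3 and 7 in LX-2FAP, and its value of -0.94 (SE 0.38, edgeR adjusted p = 0.154) rests on those counts.

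Hexokinases phosphorylate glucose as it enters. HK1, the housekeeping form, took 68.2% ± 1.24 of the summed hexokinase FPKM in LX-2Vector and 67.8% ± 0.560 in LX-2FAP. HK2, the regulated form, took 30.3% ± 1.27 and 30.7% ± 0.754. The log2 fold changes were -0.05 (SE 0.04) for HK1 and -0.02 (SE 0.05) for HK2, and both turned positive with the GC trend removed. HKDC1 (89 to 144 counts) gave -0.11 (SE 0.13) and HK3 (6 to 15 counts) 0.26 (SE 0.41). GPI, which converts glucose 6-phosphate into fructose 6-phosphate, lay at 276 to 294 CPM in LX-2Vector and at 250 to 268 CPM in LX-2FAP. Its groups did not overlap, and it missed the threshold with -0.15 (SE 0.04, edgeR adjusted p = 0.0539), and gave -0.07 with the GC trend removed.

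Phosphofructokinase 1 catalyses the committed step as a tetramer of liver (PFKL), muscle (PFKM) and platelet (PFKP) subunits. PFKL (ENSG00000141959, GRCh38 chromosome 21, 44300051 to 44327376) stood at 100.8, 91.7 and 104 CPM in LX-2Vector and at 83.4, 70.1 and 74.3 CPM in LX-2FAP. The groups were apart, with LX-2FAP replicate 1 again the highest of its group, and the value of -0.38 on the log2 scale (SE 0.06, edgeR adjusted p = 0.00742) had the smallest p of the 34 genes. With the GC trend removed PFKL was still called, at -0.22. PFKM gave -0.02 (SE 0.05), positive with the GC trend removed, and 8.58% of its exon bases lie under SENP1 on the other strand. PFKP gave -0.18 (SE 0.05, edgeR adjusted p = 0.0552) with no overlap of the groups, and -0.07 with the GC trend removed. Of the summed FPKM of the subunits, PFKL took 24.4% ± 1.34 in LX-2Vector and 21.0% ± 1.22 in LX-2FAP, and PFKM 36.6% ± 1.32 and 40.5% ± 2.58.

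The PFKFB enzymes make and break down fructose 2,6-bisphosphate, the activator of phosphofructokinase 1. PFKFB3 (ENSG00000170525, GRCh38 chromosome 10, 6144934 to 6254644), whose kinase activity dominates, stood at 56.2, 59.9 and 61.9 CPM in LX-2Vector and at 52.15, 47.3 and 50.8 CPM in LX-2FAP. The groups were apart, and the log2 fold change was -0.24 (SE 0.06, edgeR adjusted p = 0.0233), the smallest in size among the called genes. PFKFB4 (ENSG00000114268, GRCh38 chromosome 3, 48517684 to 48562015) stood at 40.9, 38.9 and 49.1 CPM in LX-2Vector and at 38.0, 26.2 and 26.8 CPM in LX-2FAP. LX-2FAP replicate 1 lay just under the lowest control and the other two far below, which gave -0.49 (SE 0.11, edgeR adjusted p = 0.0252). PFKFB2, a form of heart and other tissues, gave -0.08 (SE 0.09) with overlapping groups. With the GC trend removed, PFKFB3 was at -0.14 (edgeR adjusted p = 0.133) and PFKFB4 at -0.39 (edgeR adjusted p = 0.0612), neither of them called.

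Aldolase splits fructose 1,6-bisphosphate. ALDOC (ENSG00000109107, GRCh38 chromosome 17, 28573115 to 28577264), the brain form, stood at 61.0, 53.7 and 73.6 CPM in LX-2Vector and at 48.4, 26.9 and 31.0 CPM in LX-2FAP. ALDOC gave -0.81 (SE 0.15, edgeR adjusted p = 0.01002), which was the most negative of the called genes, and LX-2FAP replicate 1 lay nearer to the controls than to the other two libraries of its group. Leaving out a library moved the value between -1.11 and -0.66. ALDOA, the form of muscle and most tissues, had only 150 to 251 counts and gave -0.20 (SE 0.09, edgeR adjusted p = 0.215), although its groups did not overlap. Of its exon bases 42.3% are shared with AC093512.2 on the same strand, and how reads in shared exons were assigned is not given in the sources used here, so the level of ALDOA is uncertain.

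Triose phosphate isomerase and glyceraldehyde 3-phosphate dehydrogenase follow. TPI1 lay at 1034 to 1091 CPM in LX-2Vector and at 970.2 to 1013 CPM in LX-2FAP, without overlap, and gave -0.11 (SE 0.04, edgeR adjusted p = 0.0996), close to 0 with the GC trend removed. GAPDH gave -0.04 (SE 0.04, edgeR adjusted p = 0.623), and 0.09 with the GC trend removed. Phosphoglycerate kinase makes the first ATP of the pathway. PGK1 (ENSG00000102144, GRCh38 chromosome X, 77910739 to 78129296) stood at 798, 808 and 924 CPM in LX-2Vector and at 773, 662 and 691 CPM in LX-2FAP. The groups were apart, with LX-2Vector replicate 3 well above the rest, and the log2 fold change was -0.25 (SE 0.06, edgeR adjusted p = 0.0260). PGAM1, the mutase of the next step, gave 0.01 (SE 0.04), of a sign that changed with the scaling, and 28.0% of its 75-base words occur in other transcripts.

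Enolase forms phosphoenolpyruvate. ENO2 (ENSG00000111674, GRCh38 chromosome 12, 6913745 to 6923698), the neuronal form, stood at 233, 211 and 265 CPM in LX-2Vector and at 201, 145 and 159 CPM in LX-2FAP. The groups were apart, and the log2 fold change was -0.49 (SE 0.09, edgeR adjusted p = 0.0122). ENO1, the ubiquitous form, lay at 2004 to 2111 CPM in LX-2Vector and at 1948 to 2028 CPM in LX-2FAP, gave -0.05 (SE 0.04, edgeR adjusted p = 0.490), and turned positive with the GC trend removed. ENO3, the muscle form, had 85 to 131 counts and gave -0.19 (SE 0.12). ENO2 therefore took 12.3% ± 0.957 of the summed enolase FPKM in LX-2Vector and 9.34% ± 1.296 in LX-2FAP. Pyruvate kinase, PKM, makes pyruvate and gave -0.04 (SE 0.04, edgeR adjusted p = 0.649), positive with the GC trend removed.

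Lactate dehydrogenase interconverts pyruvate and lactate. LDHA (ENSG00000134333, GRCh38 chromosome 11, 18394388 to 18408425), the form of tissues that release lactate, stood at 972, 991 and 1108 CPM in LX-2Vector and at 973, 770.5 and 833 CPM in LX-2FAP. LX-2FAP replicate 1 lay within the range of the controls and the other two below it, and the log2 fold change was -0.25 (SE 0.07, edgeR adjusted p = 0.0421), the call nearest to the threshold. LDHB (ENSG00000111716, GRCh38 chromosome 12, 21635342 to 21757857), the form of heart and of tissues that use lactate, stood at 8.14, 10.7 and 8.70 CPM in LX-2Vector and at 11.7, 12.3 and 12.7 CPM in LX-2FAP. All LX-2FAP libraries lay above all controls, and the log2 fold change was 0.43 (SE 0.10, edgeR adjusted p = 0.0273). LDHB rests on 185 to 280 counts a library, and 33.4% of its exon bases are shared with AC010197.2 on the same strand, so its level is uncertain.

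Pyruvate dehydrogenase kinases inactivate the pyruvate dehydrogenase complex. PDK1 (ENSG00000152256, GRCh38 chromosome 2, 172555373 to 172608669) stood at 55.7, 56.6 and 72.2 CPM in LX-2Vector and at 52.7, 39.0 and 47.4 CPM in LX-2FAP. The groups were apart, narrowly for LX-2FAP replicate 1, and the log2 fold change was -0.40 (SE 0.10, edgeR adjusted p = 0.0320). Without LX-2Vector replicate 3 PDK1 was at -0.26 (edgeR adjusted p = 0.117). PDK2, of which 38.6% of the exon bases lie under SAMD14 on the other strand, gave -0.18 (SE 0.08, edgeR adjusted p = 0.210), and -0.05 with the GC trend removed. PDK3, the kinase with the highest FPKM here, gave -0.13 (SE 0.06, edgeR adjusted p = 0.198). PDK4, which fasting induces in many tissues, had 25 to 40 counts and gave 0.17 (SE 0.21).

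SLC16A3 (MCT4, ENSG00000141526, GRCh38 chromosome 17, 82228397 to 82261129) exports lactate from glycolytic cells. It stood at 133, 116 and 134 CPM in LX-2Vector and at 113, 93.8 and 102 CPM in LX-2FAP. The groups were apart, and the log2 fold change was -0.31 (SE 0.06, edgeR adjusted p = 0.0152), and -0.16 (edgeR adjusted p = 0.0883), not called, with the GC trend removed. Of its exon bases 5.36% lie under CSNK1D on the other strand. SLC16A1 (MCT1), which carries lactate in either direction, gave -0.01 (SE 0.05, edgeR adjusted p = 0.902).

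In all 10 called-lower genes LX-2Vector replicate 3 was the highest library, LX-2FAP replicate 1 the highest of its group and LX-2FAP replicate 2 the lowest library. Of all genes called lower 48.0% had this order (239 of 498), of all tested genes 6.50%, and of the 23 genes not called 4 did. The median of the 10 genes relative to the LX-2Vector mean was -0.05, -0.12 and 0.13 in LX-2Vector replicates 1 to 3 and -0.19, -0.47 and -0.36 in LX-2FAP replicates 1 to 3, on the log2 CPM scale. LX-2Vector replicate 1 was above replicate 2 in some of these genes, such as ALDOC, and below it in others, such as PDK1. The order held too in COL1A1, COL3A1, GYS1, H6PD and VWF, which belong to other lists.

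**Figure D3:**
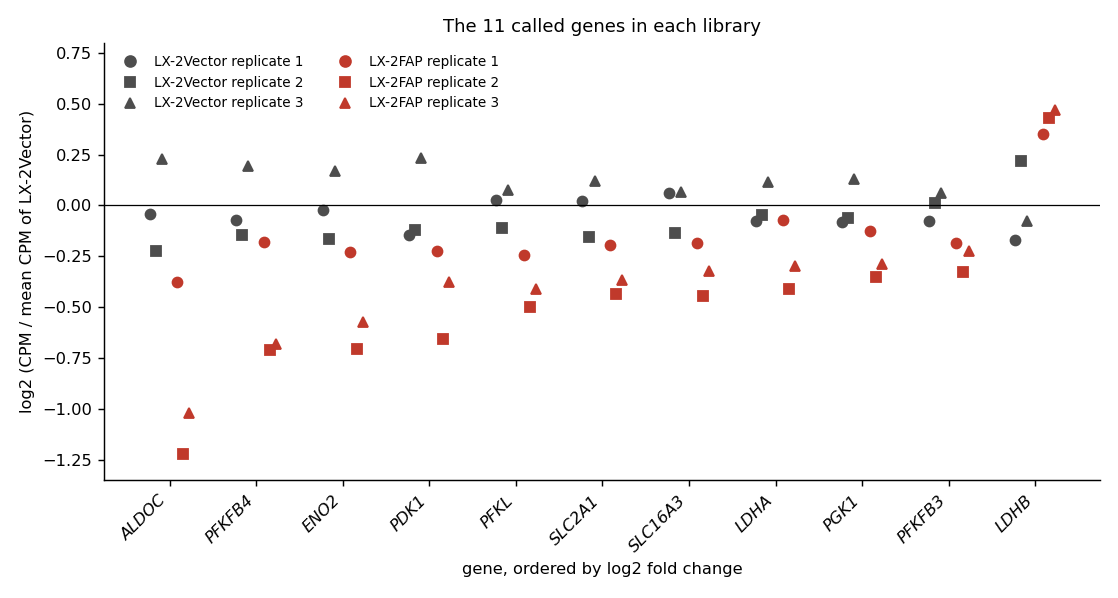
Log2 of the CPM of each library over the LX-2Vector mean for the 11 called genes, with LX-2Vector in grey and LX-2FAP in red, and a circle, square and triangle for replicates 1, 2 and 3. LX-2FAP replicate 2 (red square) is the lowest point and LX-2Vector replicate 3 (grey triangle) the highest in all 10 genes called lower, and for LDHA LX-2FAP replicate 1 lies among the controls.

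The next comparison asked whether the leading isoenzymes of a step moved alike. The ratio of both most abundant genes by FPKM was formed within each library for the 9 steps with 2 or more genes at a mean of at least 10 counts, and compared by a 2-sided exact permutation test. With 3 libraries against 3 this exact test cannot go below p = 0.1, and the smallest permutation p adjusted over the 9 steps was 0.225. For 4 ratios the groups did not overlap (exact permutation p = 0.1 each). ENO1 over ENO2 was 7.12 in LX-2Vector and 9.74 in LX-2FAP, a difference of 0.45 on the log2 scale. LDHA over LDHB was 55.5 and 34.5, a difference of -0.68, and carries the uncertainty of LDHB. SLC2A3 over SLC2A1 was 1.75 and 2.07, a difference of 0.24, and PDK3 over PDK1 was 1.74 and 2.10, a difference of 0.27. The levels of both ratios depend on the gene lengths behind the FPKM of SLC2A1 and PDK3, and their differences between groups do not. Each of the 4 ratios holds 1 gene that was called lower: ENO2, LDHA, SLC2A1 or PDK1. The LDHA ratio also holds LDHB, which was called higher, at 0.43 on the log2 scale against -0.25 for LDHA.

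For the other 5 ratios the groups overlapped. HK1 over HK2 differed by -0.03 (exact permutation p = 0.7) and lay between 2.25 in LX-2Vector and 2.21 in LX-2FAP. ALDOC over ALDOA differed by -0.67 (exact permutation p = 0.2), from 9.62 to 6.06, and carries the uncertainty of ALDOA. SLC16A1 over SLC16A3 differed by 0.30 (exact permutation p = 0.2), PFKP over PFKM by -0.16 (exact permutation p = 0.2) and PFKFB3 over PFKFB4 by 0.27 (exact permutation p = 0.3). In the ALDOC ratio LX-2FAP replicate 1 lay at 3.13 on the log2 scale, within the controls (3.08 to 3.48), and replicates 2 and 3 at 2.24 and 2.43.

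**Figure D4:**
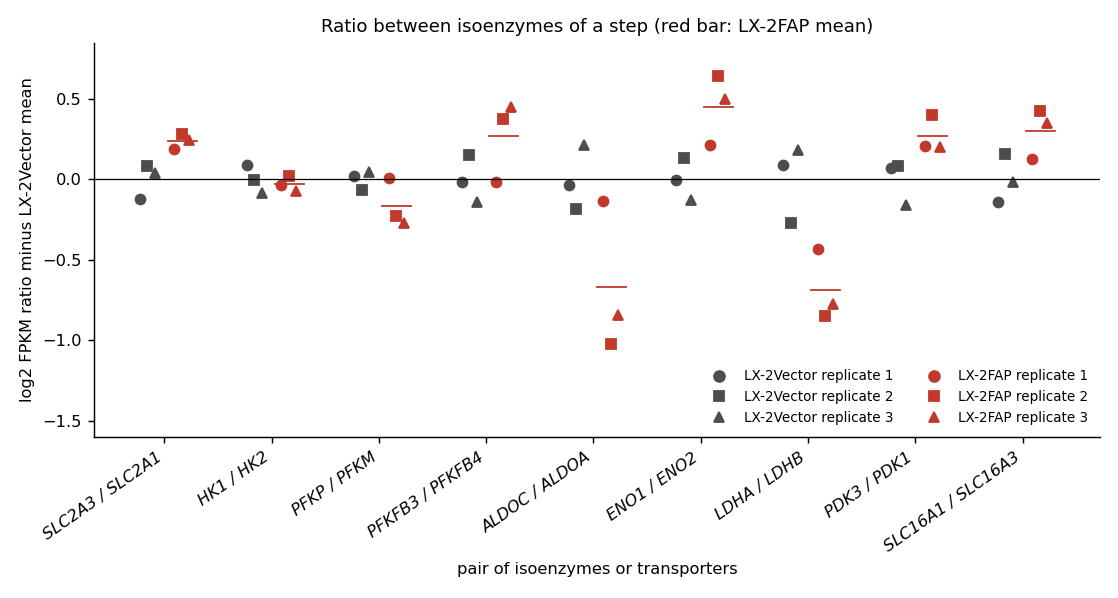
Log2 ratio of FPKM between both leading genes of each of 9 steps, less the LX-2Vector mean, in each library (LX-2Vector grey, LX-2FAP red, and a circle, square and triangle for replicates 1, 2 and 3, with a red bar at the LX-2FAP mean). The groups are apart for SLC2A3/SLC2A1, ENO1/ENO2, LDHA/LDHB and PDK3/PDK1 and overlap for HK1/HK2, PFKP/PFKM, PFKFB3/PFKFB4, ALDOC/ALDOA and SLC16A1/SLC16A3.

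Neighbouring pathways were counted in the same fit, in which 5.29% of all tested genes were called in either direction. The few calls below describe single genes and not a pathway. Of 6 tested other glycolysis genes 0 were called, as of 10 tested other sugar and lactate carriers, 8 tested genes of the pyruvate dehydrogenase complex and 3 tested genes of gluconeogenesis. In the pentose phosphate pathway 1 of 11 was called, H6PD, the glucose 6-phosphate dehydrogenase of the endoplasmic reticulum, at -0.27 (SE 0.06, edgeR adjusted p = 0.0186). In glycogen metabolism 2 of 19 were called, GYS1, muscle glycogen synthase, lower at -0.27 (SE 0.07, edgeR adjusted p = 0.0357) and PGM2, a phosphopentomutase, higher at 0.26 (SE 0.05, edgeR adjusted p = 0.00821). In the citric acid cycle 1 of 20 was called, FH, fumarate hydratase, higher at 0.18 (SE 0.05, edgeR adjusted p = 0.0416).

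In the serine and hexosamine branches, which leave glycolysis at 3-phosphoglycerate and fructose 6-phosphate, 3 of 10 genes were called and all were higher, where 2.57% of all tested genes were. They were PGM3 at 0.17 (SE 0.04, edgeR adjusted p = 0.0284), UAP1 at 0.17 (SE 0.04, edgeR adjusted p = 0.0372) and GFPT1 at 0.15 (SE 0.04, edgeR adjusted p = 0.04995), each an enzyme of the route to UDP-N-acetylglucosamine. GFPT1 takes fructose 6-phosphate out of glycolysis. Their groups did not overlap. None of the 10 was called by edgeR with library size alone, beside 5.73% of all tested genes. Nor was any called without LX-2Vector replicate 1 or 3, beside 2.09% and 2.12%, or without LX-2FAP replicate 2 or 3, beside 0.687% and 0.138%. Without LX-2FAP replicate 1, 5 were called, beside 10.4% of all tested genes. The median log2 fold change of the 10 genes was 0.11, against -0.14 for the 34 glycolysis and transport genes and 0.03 for the citric acid cycle.

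Targets of hypoxia-inducible factor outside metabolism were counted beside the glycolysis genes. Of 22 such genes 20 were tested, and 3 were called, all lower, where 2.73% of all tested genes were called lower. They were DDIT4, an inhibitor of mTORC1 signalling, at -0.63 (SE 0.12, edgeR adjusted p = 0.0120), CA12, a carbonic anhydrase, at -1.04 (SE 0.22, edgeR adjusted p = 0.0177) on 19 to 71 counts, and NDRG1, a stress-responsive gene, at -0.98 (SE 0.23, edgeR adjusted p = 0.0249). NDRG1 stood at 131, 123 and 243 CPM in LX-2Vector and at 120, 63.7 and 66.8 CPM in LX-2FAP, with LX-2Vector replicate 3 far above the other controls. All 20 had a negative log2 fold change, against 53.0% of all tested genes, with a median of -0.22 against -0.01. With the GC trend removed 19 of 20 were negative. Without LX-2Vector replicate 3 the median was -0.11 and 1 gene was called. Called were 6 without LX-2Vector replicate 1, 11 without LX-2FAP replicate 1, 0 by edgeR without LX-2FAP replicate 2 or 3, 1 by the DESeq2 Wald test and 13 of 22 with no filter on low counts. Their median relative to the LX-2Vector mean was -0.15, -0.06 and 0.20 in LX-2Vector replicates 1 to 3 and -0.10, -0.32 and -0.25 in LX-2FAP replicates 1 to 3 on the log2 CPM scale, so LX-2FAP replicate 1 lay within the controls. The order of libraries seen in the called-lower glycolysis genes held in 13 of these 20. The median of the 10 stellate and mesenchymal markers was -0.01, -0.05 and 0.06 in LX-2Vector replicates 1 to 3. In LX-2FAP replicates 1 to 3 it was -0.20, -0.32 and -0.40, all below the controls and with replicate 3 lowest. That of 5 endothelial markers, which had low counts, was 0.05, 0.08 and 0.19 in LX-2Vector and -0.05, -0.63 and -0.22 in LX-2FAP. Neither the oxygen level nor the density of the cultures behind each library was analysed here, and their part in these values was not tested.

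**Figure D5:**
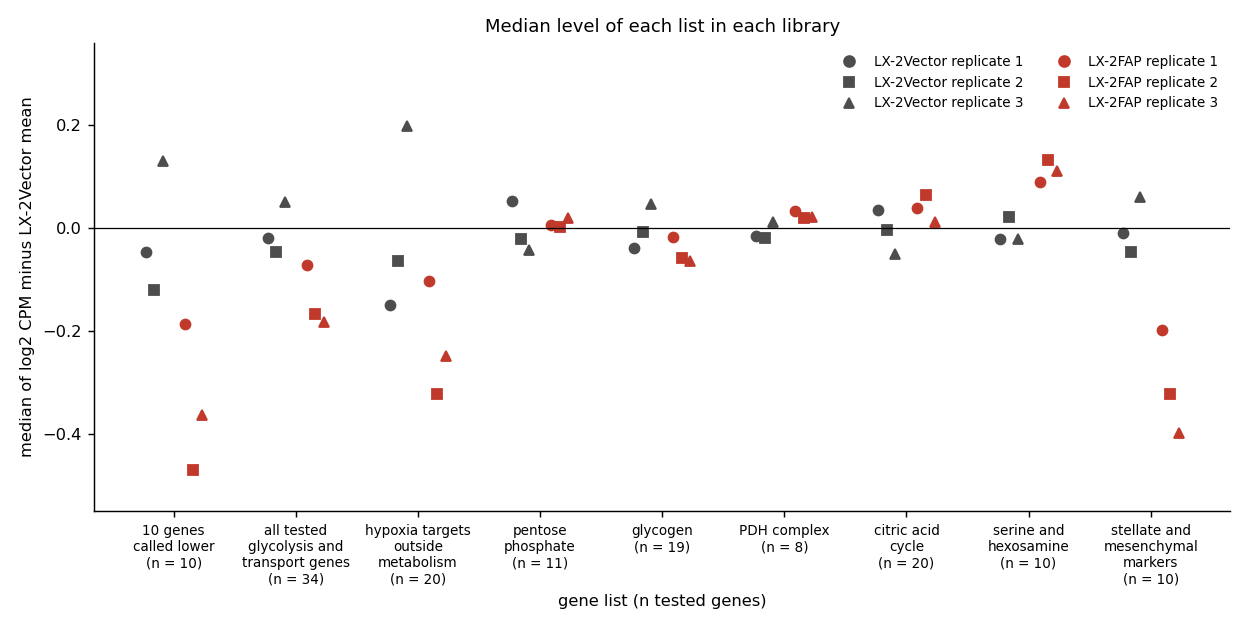
Median over the tested genes of each list of log2 CPM less the LX-2Vector mean, in each library (LX-2Vector grey, LX-2FAP red, and a circle, square and triangle for replicates 1, 2 and 3). LX-2Vector replicate 3 is highest and LX-2FAP replicate 1 the highest of its group in the called-lower glycolysis genes, the hypoxia targets and the stellate and mesenchymal markers alike, with LX-2FAP replicate 2 at -0.47, -0.32 and -0.32, while the pyruvate dehydrogenase complex and the citric acid cycle stay near 0.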

How the data were processed

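RNA of LX-2Vector (n = 3) and LX-2FAP (n = 3) cells was sequenced by the authors. Per the labels, libraries were made from RNA depleted of ribosomal RNA. A poly(A) selection is named in the methods too, which leaves the RNA classes kept unclear. Reads were aligned by the authors with HISAT2 2.0.5 and counted with featureCounts 1.5.0-p3, and whole-number counts per gene, not normalized, were deposited. The authors made the FPKM values beside them from each gene's count and length. For all 41175 genes with a count, both columns gave back a whole gene length (within 0.01), equal in every library. The submitters' processing notes list hg18, yet 58337 of 60605 Ensembl identifiers are in GENCODE 29 (GRCh38), from which gene coordinates and shared exons were taken by identifier. Use of strand in counting is not given in the sources used here, so reads of overlapping genes on opposite strands may not be told apart.

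Counts were tested with edgeR 4.0.16 (quasi-likelihood, TMM, minimum count 10 and minimum total 15, no covariate, 2-sided), with Benjamini-Hochberg adjustment over 18275 genes. SE was derived from the test statistic. CPM used TMM library sizes. Leading isoenzymes were compared with a 2-sided exact permutation test on log2 FPKM ratios (SciPy 1.17.1). On simulated counts of 17957 genes for this comparison, recovery was 32.8% at a 1.2-fold change, 62.7% at 1.5-fold and 83.3% at 2-fold, and 5.56% of calls were false. Each gene was simulated independently, without the order of libraries that many called genes shared. These shares therefore do not give the false share of the calls above. Within groups, pairs of libraries differed beyond counting error (chi-square over degrees of freedom, 2.05 to 4.88).

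All 35 genes are named. Outside them the text names FAP, the called genes of each other list (at most 4) and genes that share exons. The genes and lists were chosen with earlier results of these data known. Alternatives were library size alone, DESeq2 1.42.0 size factors and its Wald test, no filter, at least 10 counts in every library, limma-trend (limma 3.58.1) on log2(FPKM + 1) and log2(FPKM + 0.1), a replicate block, and each library left out. Removal of a GC trend (loess, span 0.5) and the study's cutoff were chosen after seeing the data. The motifs were also picked then. Promoter windows are from RefSeq (GRCh38.p14). For 48 of the 60 windows, the bases after the start site were found in a GENCODE 29 transcript of the same gene, the printed ones among them.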

Additional observations from a re-analysis of the deposited data

How the results depend on the processing

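All 11 called genes kept their direction in the 15 alternatives. Calls were lost under limma-trend on FPKM at both pseudocounts (0 of these genes called, 0 higher and 0 lower, with 2 genes called in all, where 3662 and 3638 had an unadjusted p under 0.05). Leaving out each library gave 0 to 14 genes called, 0 to 13 lower and 0 to 1 higher, and 26 to 1949 of all genes. Without a filter on low counts 1606 genes were called (3.90% of 41175 tested), 13 of them of this set. The DESeq2 Wald test called 8 of this set, beside 5.64% of all tested genes. Of the 11 calls it kept 6 and lost ALDOC, ENO2, PFKFB4, PDK1 and LDHA, and it gained GPI and PFKP. Library size alone called 14, beside 5.73% of all tested genes, and the GC trend removal 8, beside 4.67%. The cause of these shifts was not tested. With the replicate number as a block, 975 genes and 12 of this set were called, PFKP being added, and no other call changed. Deviations of same-numbered libraries correlated at -0.04, 0.04 and -0.01, and not every library correlated best with its own number, so the numbers give no pairing.

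Signs changed only in genes that were not called. With the GC trend removed, log2 fold changes were 0.0239 for HK1, 0.0376 for HK2, 0.0363 for PFKM, 0.0040 for TPI1, 0.0873 for GAPDH, 0.0239 for ENO1 and 0.0404 for PKM. PGAM1 was at -0.0142 with library size alone and at -0.0138 and -0.0139 under limma-trend with pseudocounts of 1 and 0.1. Leaving out each library gave -0.139 to 0.0059 for SLC2A3, -0.0496 to 0.0266 for HK2, -0.165 to 0.599 for HK3, -0.0487 to 0.0081 for PFKM, -0.0558 to 0.0085 for PKM, -0.0508 to 0.0208 for SLC16A1 and -0.0694 to 0.0170 for the log2 ratio of HK1 over HK2. Depth limits SLC2A4, HK3 and PDK4, with at most 40 counts a library.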
